A study of Mus musculus with 24 samples.

Results

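Immediate-early genes were followed through optic vesicle (OV) organoid differentiation by the 10 members Fos, Fosb, Jun, Junb, Egr1, Egr2, Atf3, Ier2, Ier3 and Dusp1, taken from the deposited expression table by gene symbol. The table held 49705 gene entries, of which 21005 passed a filter on low values, and all 10 members were among these. RNA-seq covered 8 groups with 3 libraries each, 24 in all. Days 0, 1, 2 and 3 gave a group of live cells each, and days 4 and 5 gave a GFP-negative and a GFP-positive group each. All groups came from mouse embryonic stem cells (mESCs) of the line Rx-GFP K/I EB5, in which GFP is knocked into the Rax locus, so that GFP marks cells expressing this eye-field gene. Aggregates were seeded on day 0 with 4500 cells each, Matrigel was at 2% from day 1, and 24 organoids were pooled for a sample. The labels give day 0 no treatment. For the differentiation medium they name GMEM with 1.5% KOSR, a serum replacement, whereas the study's methods name that medium for knockout organoids and a chemically defined one for the initial organoids.

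The labels state that the cells of every day were dissociated and passed through fluorescence-activated cell sorting for live single cells, and that days 4 and 5 were in addition gated on GFP. Days 0 to 3 were therefore not unsorted, and a response to dissociation or sorting cannot be told apart from the state of the cells in any of the 24 libraries. Whether a cell was gated on GFP is in turn confounded with the day. The GFP gate was placed to keep as many cells as possible, and cells with low GFP went into the GFP-negative samples. Rax, the gene behind the gate, had a mean normalized count of 115 ± 35.6 (SD, n = 3) on day 3, 975 ± 38.4 in day 4 GFP-negative and 9559 ± 436 in day 4 GFP-positive cells. On day 5 it was at 447 ± 60.6 in GFP-negative and 8608 ± 463 in GFP-positive cells.

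Immediate-early genes are transcribed within minutes of a stimulus, because the transcription factors that switch them on are already present in the cell and only need to be phosphorylated. Growth factors acting through the ERK kinases, stress acting through JNK and p38, and the handling of cells, including enzymatic dissociation of tissue, are known to induce them. Fos and Jun proteins pair to form the transcription factor AP-1, the EGR proteins are zinc-finger transcription factors, and Dusp1 encodes a phosphatase that switches the MAP kinases off again. Their transcripts are short-lived.

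The windows upstream of the genes were examined because several members moved together from library to library. RefSeq promoter windows (build GRCm38.p6) were searched for 8 of the 10 members and gave 12 windows of 250 bases that end at a transcription start. Egr1 was left out of this search, and no window was available for Ier2. Those of Fos and Fosb are shown as 2 members with the widest spread between replicates, that of Jun as a member that was higher on days 4 and 5, and that of Dusp1 as the member with the narrowest spread. The Fos window is chr12:85473640-85473889 on the plus strand. The other windows are on the minus strand, at chr7:19310046-19310295 for Fosb, chr4:95052223-95052472 for Jun and chr17:26508473-26508722 for Dusp1. They are printed 5′ to 3′ in the direction of transcription, and capitals mark the motifs searched for.
Fos: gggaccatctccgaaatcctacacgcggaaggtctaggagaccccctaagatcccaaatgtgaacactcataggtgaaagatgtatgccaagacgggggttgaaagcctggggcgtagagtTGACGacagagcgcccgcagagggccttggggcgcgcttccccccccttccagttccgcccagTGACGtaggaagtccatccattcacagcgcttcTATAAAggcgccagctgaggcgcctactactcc
Fosb: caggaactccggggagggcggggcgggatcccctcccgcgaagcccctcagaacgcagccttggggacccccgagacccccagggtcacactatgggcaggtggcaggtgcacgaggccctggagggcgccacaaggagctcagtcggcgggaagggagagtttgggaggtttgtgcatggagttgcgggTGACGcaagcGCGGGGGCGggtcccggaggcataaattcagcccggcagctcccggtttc
Jun: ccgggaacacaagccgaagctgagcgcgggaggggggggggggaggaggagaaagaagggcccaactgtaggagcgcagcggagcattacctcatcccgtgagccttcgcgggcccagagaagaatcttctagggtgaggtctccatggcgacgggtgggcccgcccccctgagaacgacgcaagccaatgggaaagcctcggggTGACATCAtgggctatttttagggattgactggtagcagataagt
Dusp1: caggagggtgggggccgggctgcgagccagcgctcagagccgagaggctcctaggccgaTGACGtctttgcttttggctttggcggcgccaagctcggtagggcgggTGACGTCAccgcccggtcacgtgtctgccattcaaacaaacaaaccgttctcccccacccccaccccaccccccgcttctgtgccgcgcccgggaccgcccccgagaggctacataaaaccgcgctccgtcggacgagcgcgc
The motifs were searched on both strands: the cyclic AMP response element (CRE) TGACGTCA, its core TGACG, the variant TGACATCA, the AP-1 element TGANTCA, the EGR element GCGNGGGCG, the hexamer TATAAA and the serum response element known as the CArG box. The core TGACG was added after the sequences had been seen, and every TGACGTCA also counts as TGACG. The core was found in the windows of 6 of the 8 members searched (Fos, Fosb, Junb, Egr2, Atf3 and Dusp1), and in 17.8% of all 32851 windows of this length. In Fos it began 129 and 66 bases before the start, the latter upstream of TATAAA at 33 to 28 bases, a hexamer found in 12.4% of all windows. Of the 8 members searched, Dusp1 alone held the whole CRE, 143 to 136 bases before its start (1.55% of all windows). Jun alone held TGACATCA, 45 to 38 bases before its start (2.93%), and Fosb alone the EGR element, at 50 to 42 bases (4.7%). Among the 8 members searched, the CArG box was found only for Egr2, for example 72 to 63 bases before a start, and in 1.47% of all windows. Sequence more than 250 bases before a start was not searched. TGANTCA was in none of the 12 windows and in 6.75% of all windows. These are matches of letters in a short window and were not compared with binding data.

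The expression values are DESeq2-normalized counts, that is, estimated reads per gene divided by the authors' normalization factors, and all tests used log2(normalized count + 1). A gene was called when the limma test gave a Benjamini-Hochberg adjusted p under 0.001 together with an absolute log2 fold change above 1.5, and calls at an adjusted p under 0.05 without a fold threshold are given beside them. Where counts at an unadjusted p under 0.05 are given, the share of all genes at that threshold was not counted. It is no smaller than the share at an adjusted p under 0.05. Across all 8 groups, 6 members differed at an adjusted p under 0.001 in the limma F test, against 53.9% of all genes tested. These were Jun, Junb, Atf3, Ier2, Ier3 and Dusp1. Egr2 had an adjusted p of 0.00105, Egr1 of 0.197, Fosb of 0.244 and Fos of 0.509.

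Coordinates of the genes are those of the deposited table (mm10). Fos, the founding member of the AP-1 family (ENSMUSG00000021250, chr12:85473890-85477273, plus strand), was at 188, 601 and 824 normalized counts in replicates 1, 2 and 3 of day 0, at 192, 92.9 and 460 on day 1, at 820, 496 and 216 on day 2, and at 270, 158 and 189 on day 3. On day 4 it was at 453, 265 and 162 in GFP-negative and at 452, 324 and 388 in GFP-positive cells. On day 5 it was at 668, 364 and 203 in GFP-negative and at 1371, 371 and 152 in GFP-positive cells. The highest and the second lowest of the 24 libraries thus came from the same group, day 5 GFP-positive, where the highest replicate was at 9.0 times the lowest. Ordered by the mean of their log2 values, the groups ran from day 0 over day 2, day 5 GFP-positive, day 4 GFP-positive, day 5 GFP-negative, day 4 GFP-negative and day 1 to day 3, and in this order the replicates of every pair of neighbours overlapped. Overlaps between single groups are given for the members only and were not counted over all genes.

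Fosb, a close relative of Fos with the same partners (ENSMUSG00000003545, chr7:19302696-19310051, minus strand), was at 20.3, 169 and 226 normalized counts on day 0, at 19.4, 23.3 and 156 on day 1, at 397, 261 and 118 on day 2, and at 126, 84.4 and 90.8 on day 3. The gated samples held 302, 162 and 45.5 (day 4 GFP-negative), 180, 226 and 245 (day 4 GFP-positive), 487, 199 and 108 (day 5 GFP-negative) and 792, 198 and 46.5 (day 5 GFP-positive). The ratio of highest to lowest replicate reached 17.0 in day 5 GFP-positive cells, and no neighbouring groups in the order of levels were separated. The libraries that were low for Fos within a group were as a rule the low ones for Fosb too.

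Egr1, a zinc-finger factor switched on by ERK signalling (ENSMUSG00000038418), was at 276, 2142 and 2806 normalized counts on day 0, so that replicate 1 lay far under the other two. The values were 433, 427 and 844 on day 1, 1123, 756 and 426 on day 2, and 467, 282 and 341 on day 3. In GFP-negative cells they were 631, 432 and 279 on day 4 and 1494, 790 and 467 on day 5. GFP-positive cells held 354, 329 and 379 on day 4 and 1894, 678 and 322 on day 5. Day 4 GFP-positive was the tightest of the 8 groups for Egr1, with a mean of 354 ± 24.8 (SD, n = 3), whereas day 5 GFP-positive had 965 ± 825.

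**Figure D1:**
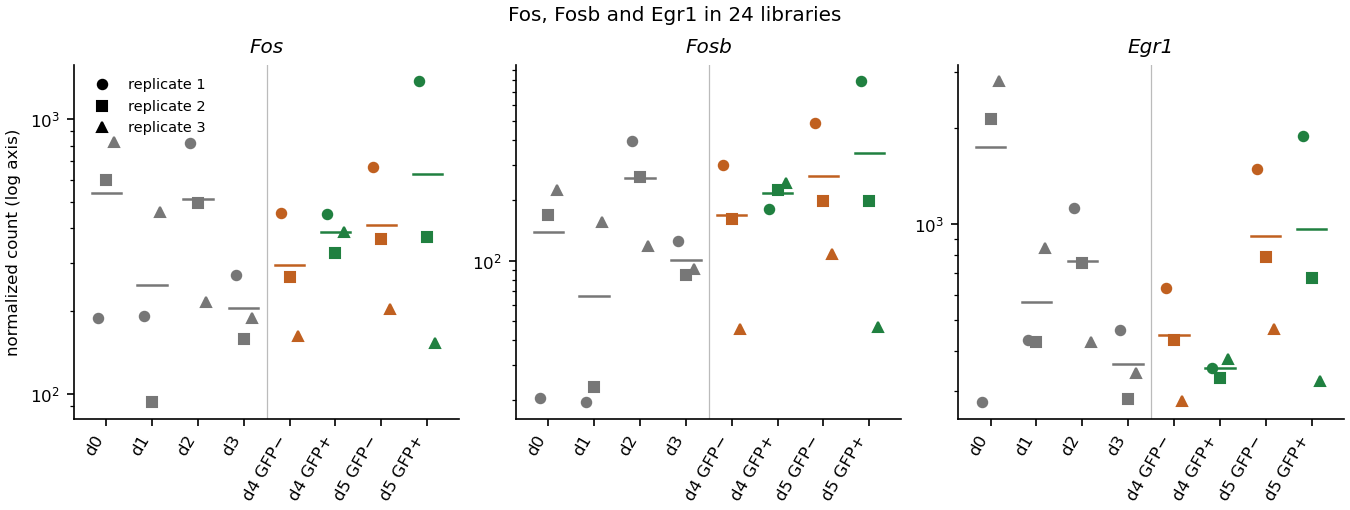
Normalized counts of Fos, Fosb and Egr1 (log axis) in each of the 24 libraries, by group, with a marker shape for each replicate number and a bar for the group mean; grey marks live cells of days 0 to 3, orange GFP-negative and green GFP-positive cells. The replicates of a group spread as widely as the groups, up to 17.0 times for Fosb in day 5 GFP-positive cells and 10.2 times for Egr1 on day 0.

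Jun, the main partner of Fos in AP-1 (ENSMUSG00000052684, chr4:95049034-95052222, minus strand), followed the day. It was at 423, 596 and 568 normalized counts on day 0, at 283, 230 and 259 on day 1, at 474, 345 and 281 on day 2, and at 839, 610 and 491 on day 3. On day 4 the values were 624, 566 and 580 in GFP-negative and 650, 584 and 590 in GFP-positive cells, with means of 590 ± 30.1 and 608 ± 36.6 (SD, n = 3). On day 5 they were 2024, 1172 and 1033 in GFP-negative and 2359, 1154 and 780 in GFP-positive cells. All 6 libraries of day 5 lay above all 6 of day 4, and in both day 5 gates replicate 1 was far above the others. How many of all genes were separated between these days was not counted.

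Junb, a Jun relative that is a weaker activator (ENSMUSG00000052837, chr8:84976910-84978718, minus strand), had its highest values at the start: 997, 1629 and 1457 normalized counts on day 0 and 505, 494 and 548 on day 1. It was at 463, 362 and 249 on day 2 and at 241, 173 and 154 on day 3. Day 0 did not overlap with day 1, nor day 1 with the next group in the order, day 5 GFP-negative. On day 4 the values were 192, 225 and 277 in GFP-negative and 141, 123 and 123 in GFP-positive cells, and on day 5 they were 485, 337 and 291 in GFP-negative and 231, 193 and 162 in GFP-positive cells. On both days every GFP-positive library was below every GFP-negative library, and the share of all genes separated in this way was not counted.

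Atf3, a stress-induced partner of Jun proteins that often represses (ENSMUSG00000026628, chr1:191170296-191218039, minus strand), was highest in 1 library of day 0, with 288 normalized counts against 103 and 72.8 in the other two. It was between 39.3 and 115 in all 9 libraries of days 1 to 3 and between 25.9 and 76.4 in the 6 of day 4. On day 5 it was at 163, 225 and 144 in GFP-negative and at 144, 116 and 139 in GFP-positive cells, above every library of day 4 (share of all genes not counted). Egr2, a relative of Egr1 known from hindbrain segments and from myelinating Schwann cells (ENSMUSG00000037868, chr10:67535475-67542188, plus strand), was low throughout, between 1.67 on day 0 and 49.2 in day 5 GFP-negative cells. Since 1 read was worth 0.805 to 1.395 normalized counts, depending on the library, its lowest value stood for hardly more than a read. Its group means were lowest on day 3 (5.96 ± 1.94, SD, n = 3) and day 0 (7.44 ± 5.05) and highest in day 5 GFP-negative cells (36.4 ± 11), and no neighbours in the order were separated.

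Ier3, an early-response gene linked to cell survival (ENSMUSG00000003541, chr17:35821684-35822923, plus strand), was at 1987, 877 and 593 normalized counts on day 0 and at 373, 259 and 361 on day 1. It was at 141, 160 and 175 on day 2 and at 207, 109 and 142 on day 3. The gated samples held 92.8, 112 and 125 (day 4 GFP-negative), 59.4, 87.8 and 72.2 (day 4 GFP-positive), 213, 159 and 150 (day 5 GFP-negative) and 99.9, 88.7 and 95.9 (day 5 GFP-positive). Day 0, day 1 and the remaining groups were separated from each other, and at the lower end day 5 GFP-positive was separated from day 4 GFP-positive. Ier2, an early-response gene whose product acts in the nucleus (ENSMUSG00000053560, chr8:84661331-84662854, minus strand), was likewise highest at the start, with 7190 ± 1402 (SD, n = 3) on day 0, 4585 ± 202 on day 1 and 3730 ± 427 on day 2. These 3 groups were separated from each other, but day 2 overlapped with the next group, day 5 GFP-negative (3355 ± 516). The lowest mean was 2288 ± 47.2 in day 4 GFP-positive cells.

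Dusp1, the MAP kinase phosphatase (ENSMUSG00000024190, chr17:26505590-26562128, minus strand), had the tightest replicates. It was at 1718, 1588 and 1290 normalized counts on day 0, at 1133, 1269 and 1203 on day 1, at 1287, 1256 and 1120 on day 2, and at 1052, 1040 and 1051 on day 3. In GFP-negative cells the values were 660, 661 and 526 on day 4 and 690, 673 and 582 on day 5, and in GFP-positive cells 657, 759 and 656 on day 4 and 869, 601 and 686 on day 5. Of the 12 libraries of days 0 to 3 the lowest had 1040 and the highest of the 12 libraries of days 4 and 5 had 869, so the libraries of Dusp1 did not overlap. The same was true of no other member, and 6.88% of all genes tested had all 12 late libraries below all 12 early ones.

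**Figure D2:**
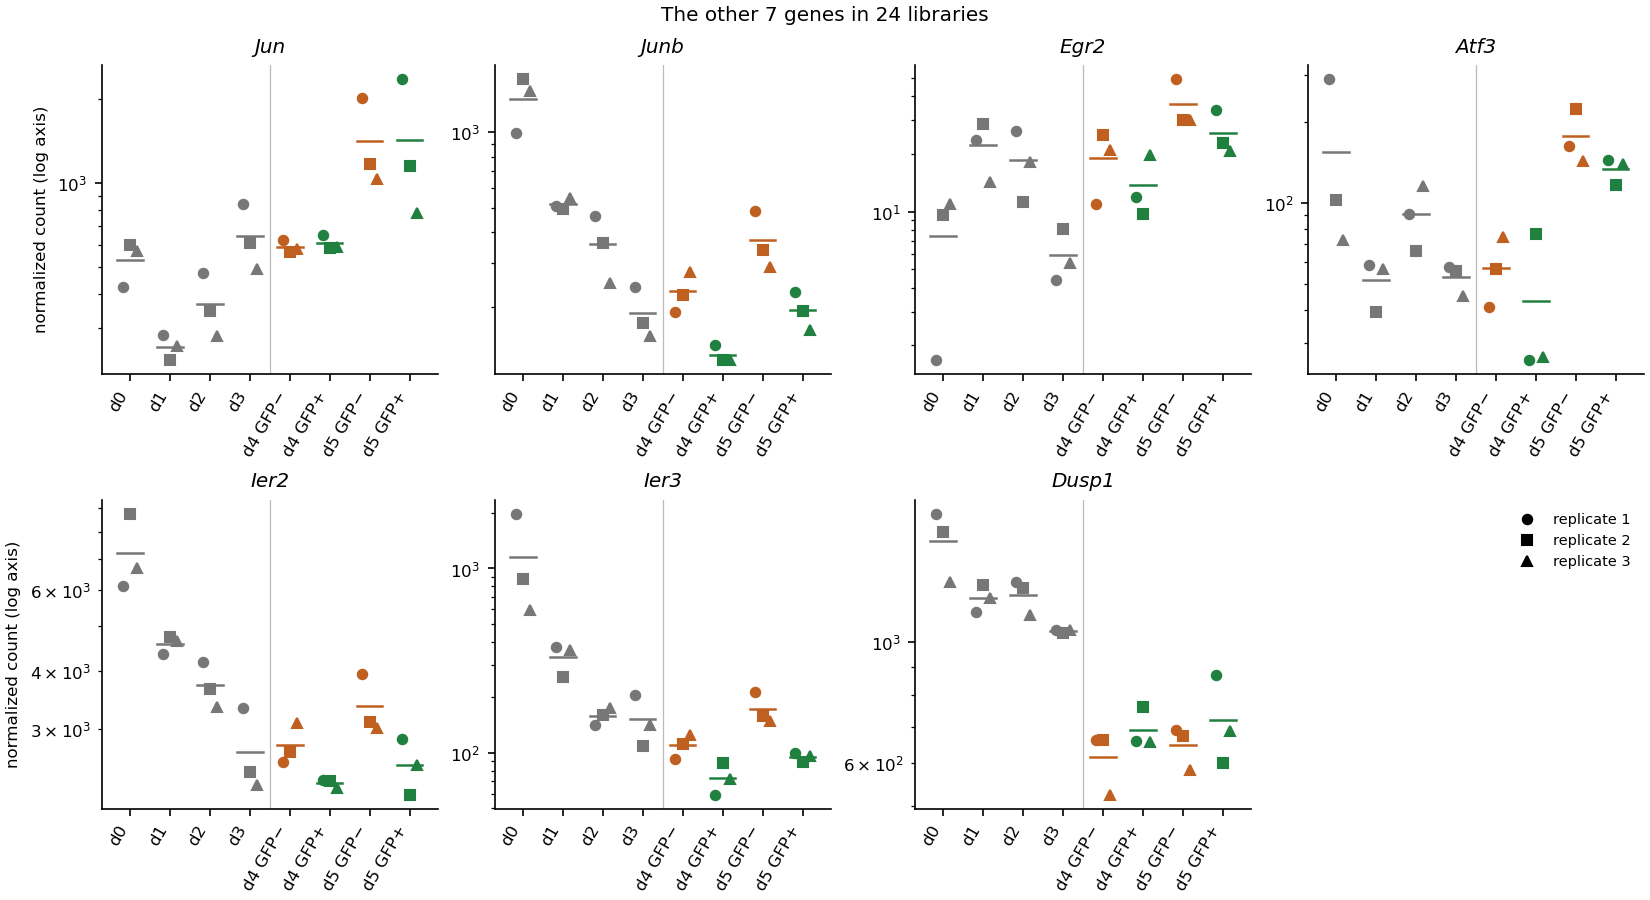
Normalized counts (log axis) of the other 7 members in the 24 libraries, with the markers, bars and colours used for Fos. Dusp1 steps down between day 3 (1040 to 1052) and the gated groups (526 to 869), Junb, Ier2 and Ier3 are highest on day 0, and Jun and Atf3 are higher on day 5 than on day 4.

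The first comparison set the 4 gated groups of days 4 and 5 against the 4 groups of days 0 to 3, each group with equal weight. None of the 10 members was called, although 20.8% of all genes tested were called in either direction, and 6 members had an unadjusted p under 0.05. At an adjusted p under 0.05, 2 members were higher, where 34.2% of all genes were, and 4 were lower, where 37.7% were. The median log2 fold change of the members was -0.02 and that of all genes -0.04. Of the 10 members, 5 had a positive and 5 a negative log2 fold change.

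Jun had a log2 fold change of 1.09 (SE 0.15, adjusted p = 1.52e-06) on days 4 and 5, with all 12 late libraries above the median of the early ones. Egr2 had 0.93 (SE 0.25, adjusted p = 0.00198), with 10 of 12 late libraries above that median. The lower members were Ier3 at -1.47 (SE 0.16, adjusted p = 2.59e-08), just short of the fold threshold, Junb at -1.10 (SE 0.12, adjusted p = 3.6e-08), Dusp1 at -0.90 (SE 0.07, adjusted p = 1.27e-10) and Ier2 at -0.65 (SE 0.08, adjusted p = 1.37e-07). For Ier2, Ier3 and Dusp1 none of the 12 late libraries was above the early median, and for Junb 1 was. Leaving out any of the 24 libraries kept all 6 members under an adjusted p of 0.05, and Ier3 passed the fold threshold without day 0 replicate 3 (-1.57), day 1 replicate 2 (-1.51), day 3 replicate 2 (-1.52), day 4 GFP-positive replicate 2 (-1.504) or day 5 GFP-negative replicate 1 (-1.51). No difference was found for the 4 remaining members, but for those with a wide spread the 95% intervals were broad as well. Fos had a log2 fold change of 0.25 (interval -0.49 to 0.98, adjusted p = 0.542), Fosb of 0.93 (-0.08 to 1.94, adjusted p = 0.0903, under 0.05 in 3 of the 24 fits that left out a library), Egr1 of -0.20 (-0.91 to 0.50, adjusted p = 0.603) and Atf3 of 0.17 (-0.27 to 0.60, adjusted p = 0.491). An average rise of Fosb to more than 3 times the level of days 0 to 3 is thus within its interval, whereas for Atf3 the interval ends below the log2 fold change of 1.

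The choice of the early libraries mattered. With days 1 to 3 in place of days 0 to 3, an alternative added after the data had been seen, the log2 fold change of Junb shrank to -0.59, that of Ier3 to -0.88 and that of Ier2 to -0.40, all 3 still at an adjusted p under 0.001 (0.000361, 8.8e-05 and 0.000215). Dusp1 moved little, to -0.80, and Jun was at 1.195. The sign of Egr1 turned to 0.10, whereas it was at -0.47 (adjusted p = 0.106) without day 0 replicate 1 and at -0.48 (adjusted p = 0.195) without the day 5 libraries numbered 1. Without the day 5 libraries numbered 1, the log2 fold change of Fos turned to -0.07 and that of Fosb came to 0.54, while Ier3 was then called at -1.52. Neither Fos nor Egr1 passed a threshold under any of these settings.

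The gates were then set apart, each against the same 12 libraries of days 0 to 3, so that the values share their controls. In GFP-positive cells 2 members were called lower, Ier3 at -1.83 (SE 0.19, adjusted p = 2.24e-08) and Junb at -1.54 (SE 0.15, adjusted p = 5.54e-09), where 14.4% of all genes were called lower. No member was called higher, against 8.98% of all genes. Both calls were lost with days 1 to 3 as the early libraries, where Ier3 was at -1.24 and Junb at -1.02, and that of Junb also with quantile normalization (-1.46). That scaling moved the median log2 fold change of all genes from -0.04 to 0.07, and relative to the median of each fit Junb was at -1.53 with it and at -1.499 without it. Junb also missed the fold threshold without day 0 replicate 2 (-1.4997), day 2 replicate 1 (-1.48), day 3 replicate 1 (-1.49) or day 5 GFP-positive replicate 3 (-1.47). In each gate 6 members had an adjusted p under 0.05, as did 68.3% of all genes in the GFP-positive gate and 64.5% in the other gate. Of these, Egr2 in the GFP-positive gate (0.71, adjusted p = 0.0432) kept an adjusted p under 0.05 in 8 of 18 fits that left out a library, and was at 0.45 (adjusted p = 0.219) with days 1 to 3 as the early libraries and at 1.07 (adjusted p = 0.00248) with quantile normalization. Ier2 in the GFP-negative gate had an adjusted p of 0.0526 with days 1 to 3. In GFP-negative cells none was called, where 17% of all genes were called in either direction, and 6 members had an unadjusted p under 0.05. There Ier3 was at -1.11 (SE 0.19, adjusted p = 3.07e-05) and Junb at -0.67 (SE 0.15, adjusted p = 0.000407), and with days 1 to 3 as the early libraries Ier3 was at -0.52 (adjusted p = 0.0301) and Junb at -0.16 (adjusted p = 0.381). Jun was at 1.08 in GFP-positive and at 1.09 in GFP-negative cells (SE 0.19 for each), and Dusp1 at -0.82 and -0.97 (SE 0.08 for each).

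**Figure D3:**
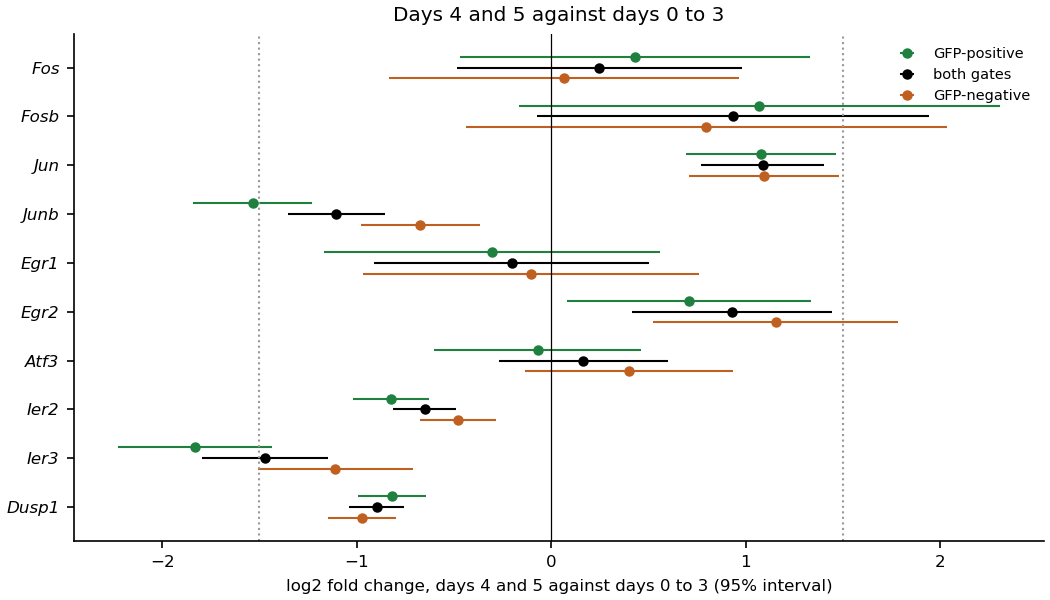
Log2 fold changes of the 10 members between days 4 and 5 and days 0 to 3 with their 95% intervals, for both gates (black), GFP-positive (green) and GFP-negative cells (orange); dotted lines mark the fold threshold of 1.5. The intervals of Fos, Fosb and Egr1 are the widest and include 0, and of the values past a dotted line Junb and Ier3 in GFP-positive cells were called.

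Between successive days, 6 members had an adjusted p under 0.05 in the first step and 1 or 2 in each later one. From day 0 to day 1 none was called (0.738% of all genes were, in either direction), while 7 had an unadjusted p under 0.05 and 9 had a negative log2 fold change, with a median of -1.13 against -0.00123 for all genes. At an adjusted p under 0.05, 5 were lower, where 4.79% of all genes were: Ier3 at -1.63 (adjusted p = 0.00153), Junb at -1.37 (adjusted p = 0.00067), Atf3 at -1.33 (adjusted p = 0.0471), Jun at -1.02 (adjusted p = 0.0344) and Ier2 at -0.63 (adjusted p = 0.0102). Egr2 was higher at 1.68 (adjusted p = 0.0332), where 5.23% of all genes were higher. This step rests on day 0, whose replicate 1 stood apart from the other two. Without that library Junb was called at -1.58 (adjusted p = 0.000149), Ier3, Jun and Ier2 stayed under an adjusted p of 0.05 at -1.14, -1.18 and -0.74, and Atf3 (-0.75, adjusted p = 0.208) and Egr2 (0.98, adjusted p = 0.151) did not, which left 4 of the 6. Leaving out each of the 6 libraries of this step in turn kept an adjusted p under 0.05 in 6 fits for Junb and Ier3, in 5 for Ier2 (lost without day 0 replicate 2), in 3 for Egr2, in 2 for Atf3 and in 1 for Jun. Ier3 was called at -2.01 without day 0 replicate 3. In the same step, of 24 other immediate-early genes 4 were called lower, Socs3 at -2.74, Gadd45b at -2.17, Ccn2 at -1.75 and Ccn1 at -1.71, and 1 was called higher, Ier5 at 1.51. Fits that left out a library are given for the members and not for these genes. Of 11 phosphatases and feedback inhibitors of the MAP kinases, 1 was called higher, Dusp4 at 1.53, and 0 lower.

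From day 1 to day 2 no member was called (1.47% of all genes), 3 had an unadjusted p under 0.05, and Ier3 was lower at -1.04 (adjusted p = 0.0239), where 7.54% of all genes were lower and 9.03% higher at an adjusted p under 0.05. From day 2 to day 3 none was called (1% of all genes), 4 had an unadjusted p under 0.05, and Junb at -0.90 (adjusted p = 0.0148) and Ier2 at -0.50 (adjusted p = 0.0342) were lower, where 6.99% of all genes were lower and 7.46% higher. In this step 9 of the 10 members had a negative log2 fold change, with a median of -0.82. Each of these 3 differences kept an adjusted p under 0.05 in 2 of the 6 fits that left out a library, and Ier3 lost it without day 1 replicates 1 or 3 and day 2 replicates 1 or 2. Junb and Ier2 lost it without day 2 replicates 1 or 2 and day 3 replicates 2 or 3.

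The step into the GFP gates, from day 3 to day 4, is where a gate on GFP first applied. Dusp1 was lower in both gates, at -0.60 (SE 0.14, adjusted p = 0.00124) in GFP-positive cells and -0.77 (SE 0.14, adjusted p = 0.000317) in GFP-negative cells. In GFP-positive cells Ier3 was also lower, at -1.02 (adjusted p = 0.0127), and in GFP-negative cells Egr2 was higher, at 1.49 (adjusted p = 0.0387). In the same cells 5 of 7 hindbrain and neural crest markers were called higher and 1, Foxd3, lower (-2.43), with a median log2 fold change of 2.78. Their sum lay between 2516 and 2861 normalized counts on day 3 and between 1336 and 1873 in day 4 GFP-negative cells, and their part in the level of Egr2 was not tested. The difference of Dusp1 kept an adjusted p under 0.05 in all 6 fits of each gate that left out a library, that of Ier3 in 4 (lost without day 3 replicate 1 or day 4 GFP-positive replicate 1) and that of Egr2 in 2. For Fos the log2 fold changes were 0.94 (95% interval -0.53 to 2.41) and 0.42 (-1.04 to 1.89), for Egr1 -0.01 (-1.42 to 1.40) and 0.25 (-1.16 to 1.67). Changes of 2-fold and more in either direction are within these intervals for Egr1. No member was called in either gate, where 10.7% of all genes were called in GFP-positive cells and 2.88% in GFP-negative ones, and 4 and 2 members had an unadjusted p under 0.05. At an adjusted p under 0.05, 17.1% of all genes were higher and 20.9% lower in GFP-positive cells, and 9.49% were higher and 9.01% lower in GFP-negative cells.

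From day 4 to day 5, Jun and Atf3 were higher in both gates. Atf3 was higher by a log2 fold change of 1.79 (SE 0.42, adjusted p = 0.0067) in GFP-positive cells and 1.63 (SE 0.42, adjusted p = 0.0143) in GFP-negative cells. Jun was higher by 1.08 (SE 0.30, adjusted p = 0.0249) and 1.19 (SE 0.30, adjusted p = 0.0134), and with quantile normalization the former was at 1.02 (adjusted p = 0.0507). Without the day 5 libraries numbered 1, Jun was at 0.64 (adjusted p = 0.113) and 0.90 (adjusted p = 0.0229), and Atf3 at 1.73 and 1.67. Leaving out each of the 6 libraries of a gate in turn, Atf3 kept an adjusted p under 0.05 in 5 fits in GFP-positive (lost without day 4 GFP-positive replicate 1) and in 4 in GFP-negative cells, and Jun in 2 and 5 (lost without day 5 GFP-negative replicate 1). Without day 0 replicate 1, which enters only the estimate of the spread here, Atf3 was called in GFP-positive cells (adjusted p = 0.000657). No member was called in either gate, where 1.49% of all genes were called in GFP-positive cells and 1.27% in GFP-negative ones, and 3 and 4 members had an unadjusted p under 0.05. At an adjusted p under 0.05, 4.57% of all genes were higher and 5.24% lower in GFP-positive cells, and 5.72% were higher and 4.45% lower in GFP-negative cells. In GFP-negative cells all 10 members had a positive log2 fold change, with a median of 0.70 against 0.01 for all genes, and in GFP-positive cells 9 had, with a median of 0.49.

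Between the gates, Junb was the only member with an adjusted p under 0.05. Its log2 fold change between GFP-positive and GFP-negative cells was -0.82 on day 4 (SE 0.24, adjusted p = 0.0204) and -0.90 on day 5 (SE 0.24, adjusted p = 0.0104). With quantile normalization it was -0.59 (adjusted p = 0.108) on day 4 and -0.66 (adjusted p = 0.0713) on day 5, and without the day 5 libraries numbered 1 the day 5 value was -0.82 (adjusted p = 0.0651). Leaving out each of the 6 libraries of a day in turn kept an adjusted p under 0.05 in 2 fits on day 4 and 4 on day 5. No member was called on day 4 (3.96% of all genes) or day 5 (5.01%), and 1 and 3 members had an unadjusted p under 0.05. At an adjusted p under 0.05, 4.43% of all genes were higher and 11.3% lower in GFP-positive cells on day 4, and 3.78% were higher and 12.3% lower on day 5. For Fos the gate difference was 0.51 (95% interval -0.95 to 1.98) on day 4 and 0.22 (-1.25 to 1.68) on day 5, and for Jun 0.04 (-0.59 to 0.67) and -0.07 (-0.70 to 0.56). The change of the gate difference from day 4 to day 5 was called for none of the members (0.109% of all genes), and none had an unadjusted p under 0.05.

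The cells of the gates differed in more than Rax. Mesendoderm markers (6 of 6 in the table, none at 0 in a group) summed to between 6277 and 9097 normalized counts in day 4 GFP-negative libraries and to between 315 and 656 in day 4 GFP-positive ones. Pluripotency markers (5 of 5, none at 0) summed to between 85748 and 97522 on day 0, to between 4226 and 5060 in day 5 GFP-negative cells and to between 327 and 418 in day 5 GFP-positive cells. Endothelial and blood markers (7 of 7 in the table, none at 0 in a group) summed to between 1701 and 2501 in day 5 GFP-negative and to between 793 and 951 in day 5 GFP-positive libraries. Hindbrain and neural crest markers (7 of 7, none at 0) summed to between 1081 and 1808 and to between 319 and 414 in the same gates. The part of these cells in the level of Junb was not tested, and fewer cells of a type cannot be told apart from less RNA per cell in pooled samples.

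The spread between replicates set Fos, Fosb and Egr1 apart from the other members. Their residual SD over the 8 groups was 0.97, 1.33 and 0.93 on the log2 scale, where the median of all genes tested was 0.31. Set against the trend of the SD with the mean level, their SD was 4.14, 4.49 and 4.56 times that of genes at their level, a ratio higher than that of 99.4% to 99.5% of all genes. Jun followed at 1.99 times (92.8% of genes had a lower ratio) and Atf3 at 1.59 times, and Ier3, Junb, Ier2 and Egr2 lay between 1.14 and 1.47 times. The SD between the 8 group means was 0.49 for Fos, 0.85 for Fosb and 0.63 for Egr1, smaller than the SD within groups, while for the other 7 members it was larger. Dusp1 alone was below the trend, at 0.84 times, with an SD of 0.16. Without day 0 replicate 1 the SD of Fos was 0.92, that of Fosb 1.202 and that of Egr1 0.70. Without the day 5 libraries numbered 1 they were 0.83, 1.21 and 0.85. In both cases 9 of the 10 members were above the trend. Many other genes were above it too with all libraries, where 57.6% of all genes had a lower ratio than Egr2 at 1.14 and 26.0% a lower one than Dusp1.

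**Figure D4:**
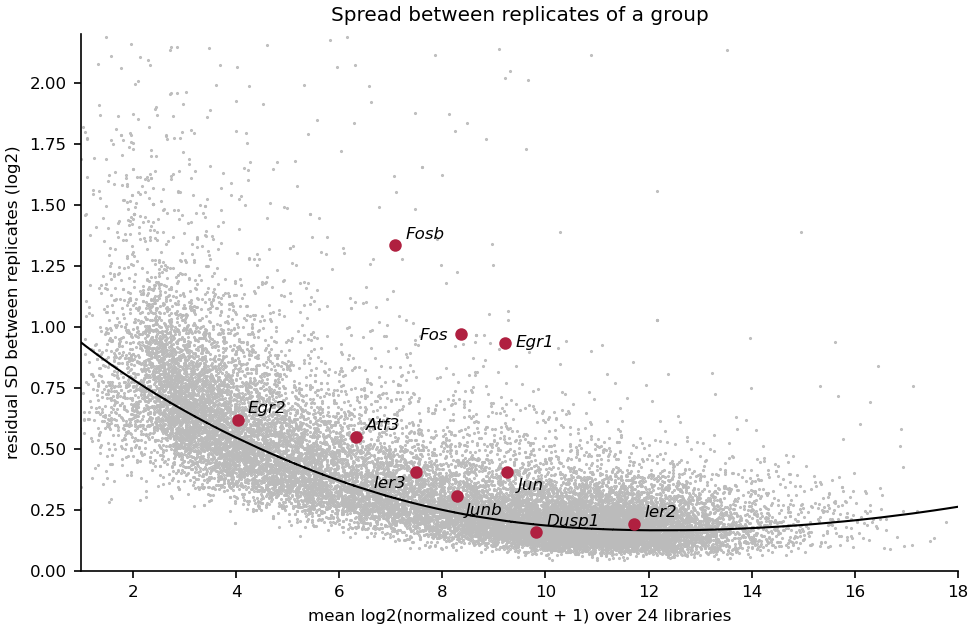
Residual SD between replicates (log2) of each gene tested against its mean log2(normalized count + 1) over 24 libraries, with the fitted trend as a line and the 10 members in red; genes beyond the plotted range are not drawn. Fos, Fosb and Egr1 lie between 4.14 and 4.56 times the trend, and Dusp1 lies below it.

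The deviations of the libraries from their group means were shared between members. Over the 24 libraries the deviations of Fos and Fosb had a Pearson correlation of 0.94, those of Fosb and Egr1 of 0.94 and those of Fos and Egr1 of 0.92. Leaving out day 0 replicate 1 gave 0.93, 0.94 and 0.94. Jun went with Fos at 0.82 and with Junb at 0.79, and Junb with Ier2 at 0.84. Atf3 and Ier3 went together at 0.76 (0.64 without day 0 replicate 1). Their correlations with the other members ran from -0.58 (Egr2 with Ier3) and -0.51 (Egr1 with Atf3) to 0.36 (Ier3 with Dusp1), with Ier2 at 0.12 for Ier3 and -0.05 for Atf3. Without day 0 replicate 1 they ran from -0.35 (Egr2 with Ier3) to 0.39 (Ier2 with Ier3). Dusp1 had correlations of at most 0.39 with the other members, and of up to 0.48 (with Fosb) without that library. The points share their libraries, so these correlations are descriptions without a test.

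**Figure D5:**
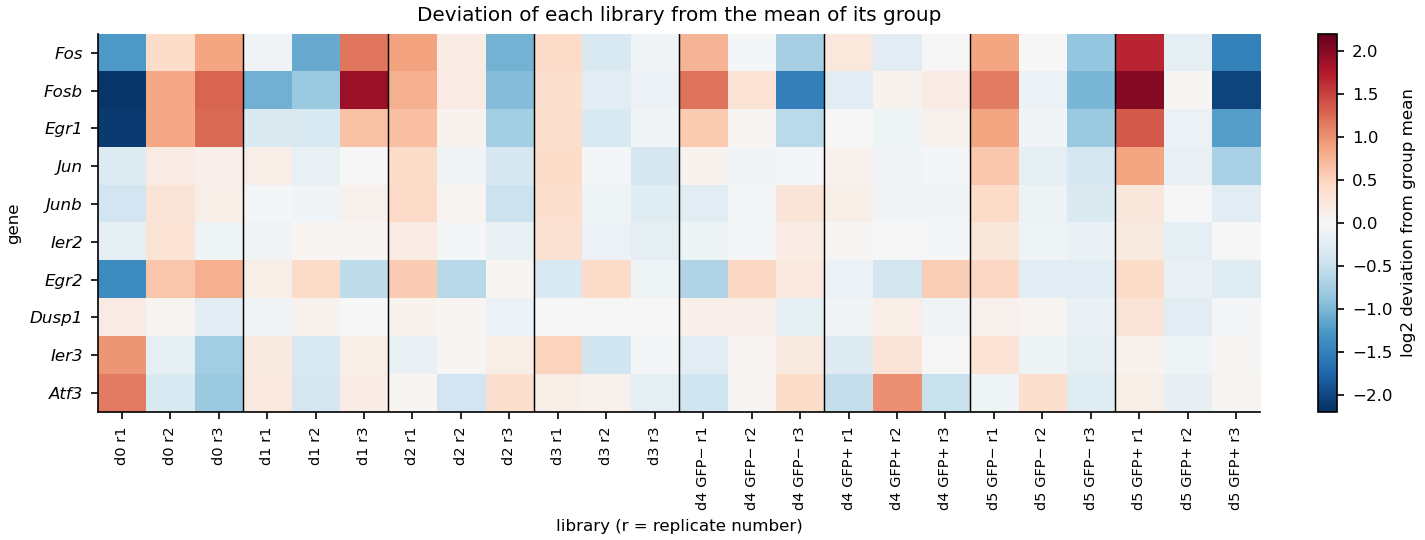
Deviation of each library from the mean of its group, in log2 units, for the 10 members (rows) and 24 libraries (columns, in groups of 3 replicates); red is above and blue below the group mean. Fos, Fosb and Egr1 deviate together, most strongly in day 0 replicate 1 (below) and day 5 GFP-positive replicates 1 (above) and 3 (below). Atf3 and Ier3 lie above the group mean in day 0 replicate 1.

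On day 5, 5 members (Fos, Fosb, Jun, Junb and Egr1) were highest in replicate 1 and lowest in replicate 3 in both gates. No member had this order in both gates on day 4. The share of all genes with this order was not counted, and the deviations of the 5 members were correlated, so they are not 5 separate observations. Over all genes the deviations of same-numbered libraries of the day 5 gates had correlations of 0.01, -0.07 and 0.15 for replicates 1, 2 and 3. In each day 5 gate replicate 1 had the lowest percentage of counts on mitochondrial genes, 1.73% in GFP-negative and 1.97% in GFP-positive cells. The other replicates reached 3.44% and 3.64%. The labels do not say whether both gates of a number came from the same pool of organoids.

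Properties of the libraries moved with these deviations. The percentage of normalized counts on the 37 mitochondrial genes lay between 1.73% and 6.04% with a median of 2.82%, and was highest in day 0 replicate 1 and lowest in day 5 GFP-negative replicate 1. Its deviations on the log2 scale correlated over the 24 libraries with those of Ier2 at -0.79, of Junb at -0.76, of Egr1 at -0.68, of Jun at -0.65, of Fosb at -0.53, of Fos at -0.51, of Egr2 at -0.41, of Dusp1 at -0.00067, of Ier3 at 0.11 and of Atf3 at 0.34. Without day 0 replicate 1 the value was -0.77 for Ier2, -0.43 for Fos, -0.22 for Egr2, -0.23 for Ier3 and 0.13 for Atf3. The part of the mitochondrial percentage in these deviations was not tested. Library totals lay between 39849111 and 51587535 normalized counts, and the estimated number of reads between 37000000 and 54800000. Day 0 replicate 1 had rank correlations of 0.953 to 0.954 with the other day 0 replicates, against 0.979 to 0.993 for the other 22 pairs of replicates, and no 2 replicates held identical values.

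Genes related to the members were followed in lists that were compiled with earlier results of these data known. On days 4 and 5 against days 0 to 3, 0 of 9 other AP-1 subunits and 0 of 4 EGR relatives and co-repressors were called in limma. An unadjusted p under 0.05 was found for 6 and 4 of them, and for at least 71.8% of all genes. Their median log2 fold changes were -0.51 and 0.98, against -0.04 for all genes. Among the AP-1 genes, Fosl2 had a log2 fold change of 0.09 and Jund of -0.44, the latter from 2 identical entries. Among the EGR relatives, Egr3, another zinc-finger factor, was called higher in GFP-positive cells at 1.93 (adjusted p = 7.86e-05) and Egr4 lower at -1.70 (adjusted p = 5.59e-06), where 8.98% of all genes were called higher and 14.4% lower. There 1 of the 9 AP-1 genes, Batf, was also called lower, at -2.08. Of 24 other immediate-early genes, 2 rose and 7 fell, where 20.8% of all genes were called in either direction, with a median of -0.72 for the list and -0.04 for all genes. Plk3, a stress-responsive kinase, had a log2 fold change of -2.99, Gadd45g of -2.66 and Zfp36, which destabilizes mRNAs, of -2.64, while Nr4a2, an orphan nuclear receptor of neurons, had 2.66. Zfp36 was at 628 ± 55.9 (SD, n = 3) on day 0 and 339 ± 49.6 on day 3, and at 128 ± 25.7 in GFP-negative and 31.2 ± 8.41 in GFP-positive cells on day 4.

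Of 11 phosphatases and feedback inhibitors of the MAP kinases other than Dusp1, 0 rose and 2 fell, a share near the 20.8% of all genes: Spry4 with a log2 fold change of -3.98 and Dusp6 with -1.83, both known as targets of ERK. In GFP-positive cells 4 of the 11 were called lower (14.4% of all genes), with a median of -0.49, and in GFP-negative cells 1 was, with a median of 0.14. Of 15 upstream kinases and transcription factors, including the ERK kinases and SRF, none was called in limma in the comparison of both gates. An unadjusted p under 0.05 was found for 9 of the 15, and for at least 71.8% of all genes. Of 12 heat shock genes 3 fell, Hspb1 at -5.22, Hspa1a at -2.60 and Hspa1b at -2.53, and none rose. Of 7 genes of the integrated stress response 2 fell, Trib3 at -2.89 and Chac1 at -1.80. The shares of both lists are likewise near the 20.8% of all genes, while their median log2 fold changes were -0.66 and -0.86 against -0.04 for all genes. An unadjusted p under 0.05 was found for 10 of 12 and 7 of 7, and for at least 71.8% of all genes. Hspa1a and Hspa1b are near-identical copies, between which reads can be split. The 5 eye-field markers rose, Six3 at 7.14, Lhx2 at 6.77 and Rax at 6.49, and the 5 pluripotency markers fell, with Pou5f1 at -5.20. Of the 7 hindbrain and neural crest markers 6 rose and 1 fell, of the 6 mesendoderm markers 1 rose, and of the 6 endothelial and blood markers tested 1 rose and 2 fell.

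The genes whose log2 levels followed each member most closely over the 24 libraries were named by their Pearson correlation. For Ier2 these were Lmna, Nr4a1 and Epop (0.97, 0.96 and 0.95), for Ier3 Gadd45b, Gpx4 and Gjb5 (0.97, 0.94 and 0.94), for Junb Gpr157, Fam78a and Jak3 (0.95, 0.94 and 0.94), and for Dusp1 Enoph1, Supv3l1 and Slc25a5 (0.94 for each). For Jun they were Rgs3, Pnmal2 and A930005H10Rik (0.88, 0.88 and 0.87), for Egr2 Rai14, Myom1 and Ccdc171 (0.85, 0.79 and 0.79), and for Atf3 Jph2, Fosl2 and Tpm1 (0.84, 0.81 and 0.80). The values were lower for Egr1, with Clasrp, E4f1 and Ppp2r3d (0.76, 0.75 and 0.74), for Fosb, with Dzank1, Atxn7l2 and Psd (0.72, 0.72 and 0.71), and for Fos, with Ccdc137, E4f1 and Clasrp (0.69, 0.66 and 0.65). These are descriptions over libraries that share their days, and other members were not counted.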

How the data were processed

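RNA was measured in 24 libraries, grouped and numbered by the sample labels. Per the labels, poly(A) RNA was sequenced from TruSeq libraries and the authors processed the reads with kallisto 0.43.1 and DESeq2 on mm10. The signal deposited by the authors is a normalized count, for which the authors divided the kallisto estimates by DESeq2 normalization factors. Whether counting used strand, and how reads of near-identical transcripts were assigned, is not given in the sources used here. Whole reads could not be recovered from the values, so no count model was run. The table's columns of the authors' own gene calls were not used.

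Normalized counts were transformed as log2(value + 1), keeping the 21005 of 49705 entries that reached 10 in 3 or more libraries. A linear model of all 24 libraries was fitted in R 4.3.3 by limma 3.58.1, whose variance prior followed the mean level, with Benjamini-Hochberg adjustment within each contrast. Called genes passed both thresholds of the study's methods, 0.001 for the adjusted p and 1.5 for the size of the log2 fold change. Replicate spread was the residual SD of this fit, set against its trend with the mean level. Tables, motif searches and figures were made in Python 3.11.15 (numpy 2.4.6, pandas 2.3.3, matplotlib 3.10.9). Tested on simulated data for the contrast of days 4 and 5 against days 0 to 3, the fit recovered 93 of 100 genes changed by 2 and 100 of 100 changed by 3 on the log2 scale, with 0 other calls among 21005 genes.

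The members and gene lists were chosen with earlier results of these data known. All 10 members are named. Of each list the text names at most the 4 called genes with the largest change in a comparison, and Fosl2, Jund, Egr3, Egr4, Batf and Ier5 were named after their values were seen. For each member the 3 genes with the highest Pearson correlation are named. The labels call the samples triplicates and do not say that they came from separate cultures, whereas the study calls them biological triplicates of organoid cultures. The p-values measure the spread between these samples. Alternatives were pseudocounts of 0.5 and 5, other filters, quantile normalization, no trend, only the groups compared, other thresholds, a replicate block and leaving out each library. Analyses without day 0, without the day 5 libraries numbered 1 or with the gates of a day as pairs were added after seeing the data.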

Additional observations from a re-analysis of the deposited data

How the results depend on the processing

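The number of called members was within 1.5 times of the main number, in every comparison, with pseudocounts of 0.5 and 5, without a filter or with a filter of 50, without the trend, with only the groups compared and with a replicate block. With quantile normalization 1 member was called in GFP-positive cells of days 4 and 5 against days 0 to 3, in place of 2. It moved the median log2 fold change of all genes by 0.107 in this comparison and by less than 0.1 in the others. With days 1 to 3 in place of days 0 to 3 (added after seeing the data) 0 were called in GFP-positive cells, and the log2 fold change of Egr1 on days 4 and 5 reversed to 0.10. Without both day 5 libraries numbered 1 (also added after seeing the data) 1 member was called on days 4 and 5 against days 0 to 3, and Fos reversed to -0.0705. The causes were not tested. At an adjusted p under 0.05 without a fold threshold, 6 members passed on days 4 and 5 against days 0 to 3, 6 in cells of either gate alone (68.3% of all genes passed in the GFP-positive gate and 64.5% in the other), 6 from day 0 to day 1, 1 from day 1 to day 2, 2 from day 2 to day 3, 2 from day 3 to each gate of day 4, 2 from day 4 to day 5 in each gate, and 1 between the gates on each day. With the fold threshold lowered to 1, 3 members were called on days 4 and 5 against days 0 to 3, 2 in GFP-negative cells and 1 from day 0 to day 1. In GFP-positive cells Jun was then called higher, at 1.08 (adjusted p = 2.53e-05), beside Ier3 and Junb, which were called lower.

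Leaving out each library in turn, between 0 and 1 members were called on days 4 and 5 against days 0 to 3, between 1 and 2 in GFP-positive cells, between 0 and 1 from day 0 to day 1, and between 0 and 1 from day 4 to day 5 in GFP-positive cells. The F test over the 8 groups then called 5 to 7 members, against 6 with all libraries, and 9 of the 10 members stayed above the trend of the replicate spread. With all libraries, 57.6% of all genes had a lower ratio to this trend than Egr2, which was at 1.14. Over all genes, same-numbered libraries of different groups deviated from their group means with correlations between -0.28 and 0.40 and a mean of -0.00054, and on day 5 between 7 and 9 of the 10 members deviated with the same sign in both gates of a number. The labels do not say whether both gates of a number came from 1 pool. With the replicate number as a block, 0 members were called on days 4 and 5 against days 0 to 3 and 2 in GFP-positive cells, as without it, and the F test called 6. Of the 37 differences of members with an adjusted p under 0.05, the block left 34. Lost were Egr2 from day 3 to day 4 GFP-negative cells (adjusted p = 0.0509), Egr2 in GFP-positive cells against days 0 to 3 (0.0536) and Atf3 from day 0 to day 1 (0.0627). With same-numbered gates of a day as pairs, a block added after seeing the data, the difference of Junb between the gates had an adjusted p of 0.0247 on day 4 and 0.0131 on day 5, and no call changed.

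Among the members, depth limits mainly Egr2, for which a few reads separate the groups. Low values are shrunk towards 0 by the pseudocount, and with 3 replicates the differences of Fos, Fosb and Egr1 between groups are known only to within their broad intervals. Every library came from dissociated and sorted cells, and no unsorted sample was analysed here.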

Other observations

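The deviations of single libraries from their group means, rather than the levels, were also compared with all other genes tested, a comparison added after the values had been seen. The genes that went most closely with Fos in this respect were Gm12932, E4f1 and Gm9256 (Pearson correlation of deviations over 24 libraries 0.79, 0.78 and 0.76), and those with Egr1 were Lrsam1, Osbpl3 and E4f1 (0.89, 0.87 and 0.86). Both sets are thus less close to Fos and Egr1 than Fosb is, at 0.94 with each. For every member other than Fos, Fosb and Egr1, a gene outside the members was closer than any member. Examples are Nop53 for Junb (0.89, with Ier2 at 0.84) and Arhgef19 for Jun (0.86, with Fos at 0.82). For Ier2 the closest were Ruvbl2, Dele1 and Flii (0.95, 0.94 and 0.93), and for Atf3 Twist1, Prorp and Rgs19 (0.84, 0.83 and 0.81). E4f1 encodes a ubiquitously expressed zinc-finger protein and Ruvbl2 a subunit of chromatin remodelling complexes.

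Library totals, which differ little after normalization, also went with the deviations of some members: the correlation was -0.67 for Egr1, 0.65 for Atf3, 0.60 for Ier3, -0.56 for Fosb and -0.52 for Fos, and -0.51, 0.50, 0.37, -0.44 and -0.43 without day 0 replicate 1. The estimated number of reads had a correlation of -0.51 with the deviations of Junb, -0.46 with those of Ier2, -0.40 with those of Jun and -0.39 with those of Ier3 (-0.64, -0.55, -0.45 and -0.34 without day 0 replicate 1), and lay between -0.21 and 0.24 for the other 6 members.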
